A study of Mus musculus with 3 samples.

Results

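CELF1 binding sites that were found in adult skeletal muscle and in neither adult heart nor cultured myoblasts are described here. CELF1 (also called CUGBP1) was mapped by CLIP-seq: tissue or cells are irradiated at 254 nm so that proteins become fixed to RNA, CELF1 is immunoprecipitated, and the RNA fragments that come with it are sequenced. One library each came from heart ventricle and muscle of 16-week-old C57/BL6 mice and from C2C12 cells, a mouse myoblast line, all with the antibody clone 3B1 against endogenous CELF1, so no group has more than 1 library. The labels give neither the muscle that was taken nor the number of animals, and no transgene or treatment is given for these samples. The data are clusters, short stretches of a transcript where reads were denser than a Poisson model, set by transcript abundance and pre-mRNA length, predicted. A muscle cluster was counted as muscle-only when it shared no base on the same strand with any heart or C2C12 cluster. This held for 11486 of 24844 muscle clusters (46.2%, 95% interval 45.6% to 46.9%), which is 15.9% of the 72222 clusters of the series. The members were chosen by the measured cluster positions themselves, so their number is a description, with no test.

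CELF1 is an RNA-binding protein that prefers U and G rich RNA, above all stretches with UGU. In the nucleus it acts on alternative splicing, and in the cytoplasm its binding to 3′ UTRs is linked to shortening of the poly(A) tail and decay of the mRNA. It is best known in skeletal muscle for its excess in myotonic dystrophy, where fetal splice forms return in adult muscle.

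Because each tissue has 1 library, no difference has a replicate check. Intervals and p-values below cover counting error of clusters only, treat clusters of 1 gene as independent although they are not, and compare these libraries rather than the tissues. The heart list holds 42263 clusters and the C2C12 list 5115, and no read numbers are attached to any cluster, so the depth behind each cluster is unknown. A transcript that is scarce in heart, a lower share of the cells that make it and a weaker binding site all leave a gene without a heart cluster and cannot be told apart here.

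The labelled tissue was set beside lists of markers. These marker lists were chosen with earlier results of these data known, so they are no independent check of the label. Of 16 listed skeletal muscle fibre markers, 14 had a muscle cluster and 8 a heart cluster, with 203 clusters in muscle against 28 in heart. Of 20 listed heart muscle markers, 4 had a muscle cluster and 16 a heart cluster, with 4 clusters in muscle against 470 in heart, and the defining heart genes Ryr2 and Myh6 had 0 in muscle. Markers of other cells had few muscle clusters, and in several lists most of these were muscle-only. The muscle-only share was 8 of 11 (72.7%) for satellite cell and myoblast markers, 5 of 7 (71.4%) for adipocyte markers, 4 of 6 (66.7%) for fibroblast markers and 2 of 3 (66.7%) for both macrophage and Schwann cell markers, against 46.2% of all muscle clusters. It was 10 of 25 (40.0%) for endothelial and 7 of 27 (25.9%) for smooth muscle and pericyte markers. Of the marker genes bound in muscle, a heart cluster was missing in 3 of 4 for satellite cells and 2 of 3 for adipocytes. It was missing in 2 of 3 for Schwann cells and 1 of 2 for macrophages. None of the endothelial, fibroblast or smooth muscle and pericyte genes lacked one, and 14.4% of all genes bound in muscle did. The part of such cells in the results below was not tested.

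The muscle-only sites with the densest UGU show what these sites can look like. They come from leading genes of 3 groups described below: genes richest in muscle-only clusters, genes without a heart cluster, and genes whose muscle clusters all differ from those of heart. For each gene the muscle-only cluster with the most UGU was taken, and within it the 30 nt with the most UGU. They are therefore extremes and not typical sites. Sequences are RNA, 5′ to 3′ on the strand of the gene, read from the NCBIM37 genome (mm9), with every UGU in capitals.
Pde4d, intron, chr13:110271099-110271128, plus strand: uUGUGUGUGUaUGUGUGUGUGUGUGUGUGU
Ttn, intron, chr2:76802120-76802149, minus strand: UGUGUGUGUGUGUGUGUGUGUugaggaguc
Neb, intron, chr2:52011592-52011621, minus strand: cUGUauuaacuuUGUGUcUGUaUGUggUGU
Eya4, intron, chr10:22884507-22884536, minus strand: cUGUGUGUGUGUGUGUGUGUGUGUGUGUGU
Ano5, intron, chr7:58799669-58799698, plus strand: cUGUcUGUcUGUcUGUcUGUaUGUGUGUGU
Dapk2, intron, chr9:66017127-66017156, plus strand: uuUGUuUGUGUGUGUGUGUGUGUGUgaUGU
Strbp, 3′ UTR, chr2:37437509-37437538, minus strand: uUGUUGUuUGUuggaaguuacuaaccaUGU
Tgfb2, 3′ UTR, chr1:188449144-188449173, minus strand: aaacauuuugcaagcuUGUGUucUGUuUGU

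The windows in Pde4d, Eya4 and Ttn are long UG repeats with 13, 14 and 10 overlapping UGU, whereas the 3′ UTR windows of Strbp and Tgfb2 hold 4 each. The Ano5 window begins with UGUC repeats, ends in a UG repeat and holds 9. None of these clusters touched a heart cluster, and the nearest heart cluster lay between 527 nt away in Ttn and 1773419 nt away in Ano5.

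The genes were divided by whether heart had any cluster in them. Genes with a heart cluster held 94.3% of all muscle clusters and 10097 of the muscle-only ones (87.9%, 87.3% to 88.5%), the latter spread over 3461 genes, and genes without a heart cluster held 1389 (12.1%, 11.5% to 12.7%), in 751 genes. A muscle-only cluster was present in 4212 of the 5341 genes bound in muscle (78.9%), and 768 of the 5341 (14.4%) had no heart cluster. Among the 3701 genes with at least 2 muscle clusters, 238 (6.43%) had no heart cluster. The group with a heart cluster divided further: 2585 genes had both muscle-only and shared muscle clusters, while in 876 genes each muscle cluster differed from those of heart and C2C12, with 1439 clusters between them. Of the 751 genes without a heart cluster, 104 (13.8%) had a C2C12 cluster elsewhere in the gene.

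Muscle-only clusters were thinly spread. A single one was found in 1942 genes (46.1%), 2 to 4 in 1675, 5 to 9 in 459 and 10 or more in 136, and these 136 genes carried 2188 clusters (19%). The median was 2 per gene with a heart cluster and 1 per gene without. Genes of the first kind were also longer, with a median span of 49830 nt and a median 3′ UTR of 1930 nt, against 19714 nt and 1050 nt for genes without a heart cluster. Muscle-only clusters were narrower, with a median of 49 nt (quartiles 40 and 58 nt) against 60 nt (48 and 82 nt) for the other muscle clusters. A wide cluster has more bases with which to meet a heart cluster, so this width difference bears on the rule and was not tested.

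Relative to the muscle clusters shared with heart or C2C12, the muscle-only ones lay less often in 3′ UTRs and more often in introns. By the part of the gene at the cluster midpoint, 41.2% (40.3% to 42.1%) of muscle-only clusters were in 3′ UTRs against 57.7% (56.9% to 58.6%) of the shared ones, and 51.8% (50.9% to 52.8%) were in introns against 35.8% (35% to 36.6%). Coding exons held 4.92% and 4.20%, and 5′ UTRs 0.557% and 0.494%. Two-sided Fisher's exact tests, adjusted by Benjamini-Hochberg over 8 tests, gave an odds ratio of 0.513 for 3′ UTRs (adjusted p = 8.65e-149) and 1.93 for introns (adjusted p = 1.26e-142). Within genes that had both kinds of cluster (2604 genes), the Mantel-Haenszel odds ratios were 0.502 and 1.87. Heart clusters lay nearer to muscle-only clusters in 3′ UTRs than in introns, as given below, and the part of that spacing in the difference was not tested.

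The balance among muscle-only clusters also differed from that among heart-only clusters of these libraries. Of the 28521 heart clusters that met neither other library, the 3′ UTR share was 21.6% (21.2% to 22.1%) and the intron share 69.0% (68.5% to 69.6%), so the 3′ UTR share was 19.5 percentage points higher among muscle-only clusters (odds ratio 2.54, with a Fisher's exact p below the smallest number the program can hold). In genes that had both a muscle-only and a heart-only cluster the shares were 38.7% and 19.4% (odds ratio 2.62). The contrast was not particular to muscle-only clusters. Shared muscle clusters stood still farther from heart-only clusters, with 57.7% in 3′ UTRs and 35.8% in introns. The part of a difference between the whole muscle and heart libraries in this contrast was not tested.

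Among muscle-only clusters, those in genes without a heart cluster were in 3′ UTRs in 46.2% (43.6% to 48.9%) and those in genes with one in 40.5% (39.5% to 41.5%; odds ratio 1.26, Fisher's exact adjusted p = 8.45e-05). With clusters at least 50 nt wide only, the shares were 52.8% and 49.2% and the difference no longer passed (Fisher's exact p = 0.0896). The rule bears on this comparison. It kept 97.4% of the muscle clusters of genes without a heart cluster but 43.1% in genes with one. The shared clusters left out of genes with a heart cluster were in 3′ UTRs in 57.7%. The test therefore cannot separate the 2 kinds of gene from the rule. Coding exons held 8.14% (6.75% to 9.70%) in genes without a heart cluster against 4.48% (4.08% to 4.90%). Clusters of genes without a heart cluster also stood nearer to landmarks of the mRNA: 53.0% (49% to 56.9%) of those in 3′ UTRs lay within 500 nt upstream of a transcript end, against 36.3% (34.9% to 37.8%), and 29.1% (25.5% to 33.0%) of those in introns lay within 300 nt of an exon, against 16.0% (15% to 17%). These last values are given without a test, and the shorter genes and 3′ UTRs of this group move with them.

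**Figure D1:**
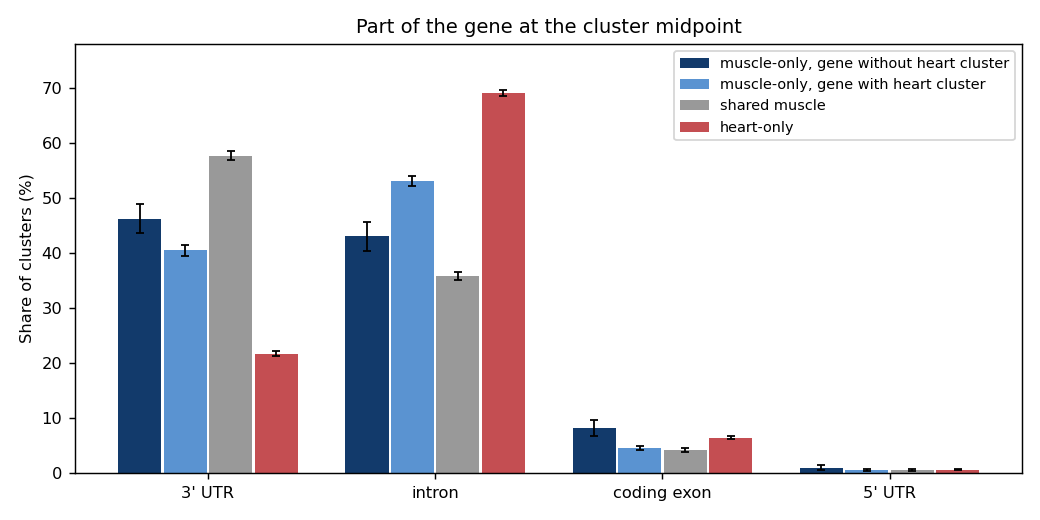
Share of clusters (%) by the part of the gene at the cluster midpoint, for muscle-only clusters in genes without (1389) and with (10097) a heart cluster, other muscle clusters (13358) and heart-only clusters (28521); error bars are exact 95% intervals. Muscle-only clusters stand between the shared muscle clusters and the heart-only clusters in both 3′ UTRs and introns.

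Intron sites were also compared by their distance to the nearest exon, with a median of 2217 nt for muscle-only and 2843 nt for shared intronic clusters. Of intronic muscle-only clusters, 17.3% (16.3% to 18.3%) lay within 300 nt of an exon, against 16.6% (15.6% to 17.7%) of the shared intronic clusters, a difference that was not detectable with these numbers (Fisher's exact adjusted p = 0.418). The direction turned within 100 nt, at 8.50% and 8.72%, and also at 300 nt when only genes with a heart cluster entered, at 16.0% and 16.6%, while within 500 nt the shares were 23.5% and 21.4% (Fisher's exact p = 0.0114). Of muscle-only 3′ UTR clusters, 38.6% (37.2% to 40.0%) lay within 500 nt upstream of a transcript end, and of shared ones 33.5% (32.4% to 34.5%).

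UGU was nearly universal in muscle-only clusters. It stood in 97.7% (97.4% to 98.0%) of them, against 98.9% (98.7% to 99.1%) of shared muscle clusters (odds ratio 0.460, Fisher's exact adjusted p = 5.88e-14) and 97.9% (97.8% to 98.1%) of heart-only clusters (Fisher's exact adjusted p = 0.180). Since shared clusters are wider, the search was repeated in the 30 nt around each midpoint, where the share was 92.6% in both kinds of muscle cluster (Fisher's exact p = 0.865). In the same 30 nt, taken by part of the gene after the values were seen, muscle-only clusters were lower in introns, at 96.7% against 98.0% (Fisher's exact p = 4.91e-05), and in 3′ UTRs, at 88.2% against 89.4% (Fisher's exact p = 0.0452). Stratified by gene, also added later, the Mantel-Haenszel odds ratio in the 30 nt was 0.797, which passed the 0.05 threshold. Genes with and without a heart cluster both gave 97.7% over whole clusters (Fisher's exact adjusted p = 1), but within 3′ UTRs the share was 98.0% in genes without a heart cluster and 96.2% in genes with one (Fisher's exact p = 0.0217, not adjusted). In the central 30 nt of 3′ UTR clusters it was 92.8% and 87.5% (Fisher's exact p = 5.45e-05, not adjusted). In introns the values lay the other way, at 98.3% and 99.1% over whole clusters (Fisher's exact p = 0.0685) and 95.5% and 96.8% in the central 30 nt (Fisher's exact p = 0.0902), and did not pass. The rule bears on the 3′ UTR contrast between these genes. In genes with a heart cluster, the shared 3′ UTR clusters it left out held UGU in 98.6% over whole clusters. These tests therefore cannot separate the genes from the rule. Against heart-only clusters, the central 30 nt gave muscle-only clusters the higher share in 3′ UTRs, 88.2% against 85.1% (Fisher's exact p = 2.07e-06), and in introns, 96.7% against 95.5% (Fisher's exact p = 2.85e-05), both unadjusted and added after the values were seen.

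The sequence around UGU was then compared. UGUGU stood in 41.7% (40.8% to 42.6%) of muscle-only clusters, 48.5% (47.6% to 49.3%) of shared muscle clusters and 51.2% (50.6% to 51.7%) of heart-only clusters. The longer repeat UGUGUGU was found in 15.5%, 18.3% and 23.9%, in the same order. UUUGU, a U-rich form, stood in 41.7%, 46.0% and 36.1%, and UAUGU in 27.6%, 28.3% and 25.1%. Per 100 nt of cluster there were 2.10, 2.07 and 3.40 UGUGU and 1.40, 1.23 and 1.07 UUUGU, counted with overlaps on the strand of the gene. These pooled densities mix gene parts, and by part the order was another. In 3′ UTRs there were 0.821 UGUGU per 100 nt in muscle-only, 1.14 in shared and 1.16 in heart-only clusters, and in introns 3.41, 4.12 and 4.50, so muscle-only clusters as a whole were lowest in both. In 3′ UTRs the muscle-only clusters were not alike, with 1.26 per 100 nt in genes without a heart cluster and 0.753 in genes with one. The rule bears on this contrast, since the shared 3′ UTR clusters it left out of genes with a heart cluster held 1.14. UUUGU was denser in muscle-only than in shared clusters in introns, at 1.96 against 1.84 per 100 nt, and less dense in 3′ UTRs, at 0.906 against 0.968, while heart-only clusters held 1.26 and 0.702. UGUGU contains UGU and lies within UGUGUGU, so these shares overlap, and none of them was tested.

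Many muscle-only clusters were close neighbours of a heart cluster. In genes with a heart cluster, 1258 of 10097 (12.5%) lay within 50 nt of one, a further 3020 (29.9%) from 51 to 500 nt away, and 5819 (57.6%) farther off. In 3′ UTRs the median distance was 193 nt, with 20.9% within 50 nt and 28.8% beyond 500 nt. In introns it was 2957 nt, with 7.02% within 50 nt and 77.6% beyond 500 nt. When a heart or C2C12 cluster within 100 nt also counted as shared, 9331 muscle-only clusters were left. By gene, 22 of 49 muscle-only clusters of Sox6 and 12 of 25 of Ppm1l lay over 500 nt from any heart cluster, against 59 of 69 in Pde4d, 42 of 47 in Ryr1 and 43 of 43 in Kcnma1.

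**Figure D2:**
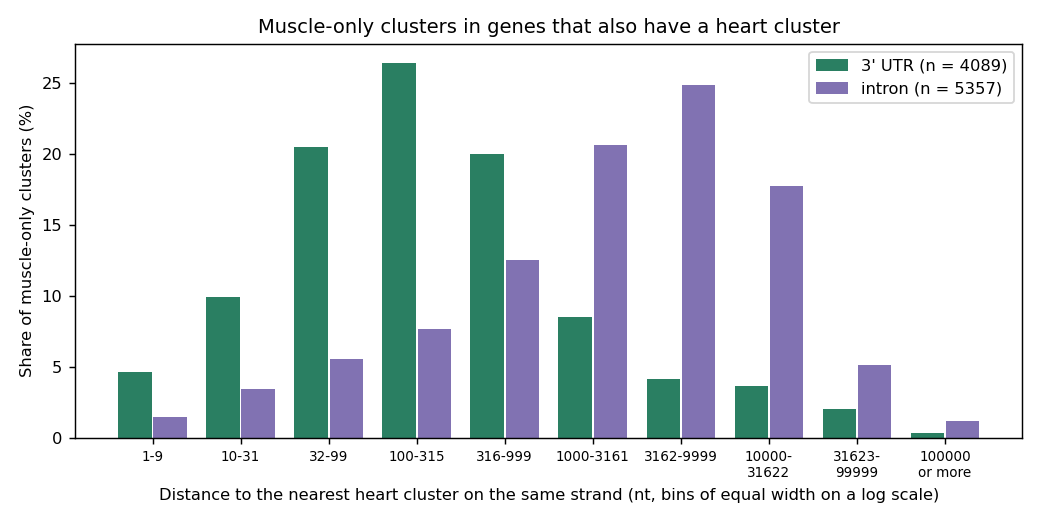
Share of muscle-only clusters (%) by distance to the nearest heart cluster on the same strand, in bins of near equal width on a log scale (nt) with an open last bin, for 4089 clusters in 3′ UTRs and 5357 in introns of genes that also have a heart cluster. The 3′ UTR clusters peak with 26.4% in the bin that starts at 100 nt, and the intronic ones with 24.8% in the bin that ends below 10000 nt.

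The 15 genes with the most muscle-only clusters held from 22 to 72 each. Rbfox1, a splicing regulator active in muscle, heart and brain (Entrez 268859, chromosome 16 from 6809315 to 7412572, plus strand), led with 72 of its 101 muscle clusters, 59 in introns and 13 in the 3′ UTR. It had 51 heart clusters, of which 7 were in the 3′ UTR. The muscle-only clusters began 43.8% of the way along the annotated gene, whereas 14 heart clusters lay upstream of the annotated start. Within the first 50% of the gene there were 18 of the 72 muscle-only and 12 of the 51 heart clusters.

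Pde4d, which encodes a cAMP phosphodiesterase with several alternative promoters (Entrez 238871, chromosome 13 from 109240142 to 110743669, plus strand), had 69 muscle-only clusters among 85 in muscle, all 69 in introns. It had more clusters in heart, 158, but in another place. Of the heart clusters 132 lay in the first 50% of the gene and 26 in the rest, while the muscle-only clusters stood between 66.0% and 99% of its length and the 16 shared ones between 78% and 96.8%. The libraries thus met only in the downstream part of the gene.

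Ttn, for titin, the elastic giant of the sarcomere (Entrez 22138, chromosome 2 from 76542037 to 76820604, minus strand), was bound densely in both tissues, with 177 clusters in muscle and 184 in heart. Its 53 muscle-only clusters were mostly in coding exons, 37 of them, against 42 of the 124 shared with heart. Of the coding ones, 19 of 37 lay in the first 50% of the gene, with a median at 47.0% of its length, while 18 of 69 heart coding clusters lay there, with a median at 75.7%. Ttn was singled out for its coding clusters after its values were seen.

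Neb, for nebulin, which lines the thin filament of skeletal muscle (Entrez 17996), lies on the minus strand of chromosome 2 from 51992167 to 52194318. It had 50 clusters in muscle and 0 in heart and C2C12, with 36 in introns, 10 in coding exons and 4 in its 3′ UTR of 615 nt. Ryr1, which encodes the channel that releases stored calcium in skeletal fibres (Entrez 20190, chromosome 7 from 29788359 to 29910170, minus strand), held 47 muscle-only clusters, 46 of them in introns. Both heart clusters of Ryr1 met a muscle cluster, at 56.7% and 57.2% of the gene. Per kb of gene Ryr1 held 0.386 muscle-only clusters and Neb 0.247, against 0.119 in Rbfox1 and 0.0459 in Pde4d.

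Sox6, a transcription factor that represses slow fibre genes in fast fibres (Entrez 20679, chromosome 7 from 122614858 to 123182258, minus strand), had 49 muscle-only clusters beside 35 shared with heart. In its 3′ UTR 16 were muscle-only and 6 shared, the largest number of muscle-only 3′ UTR clusters in any gene. Prkca, for protein kinase C alpha, a kinase of the family known to phosphorylate CELF1, had 39, of which 29 lay in the first 50% of the gene. Dmd, for dystrophin, had 43 beside 76 shared ones. Kcnma1, for the large-conductance calcium-activated potassium channel, had 43 of 44, of which 20 lay upstream of its annotated start. Its single heart cluster, also upstream, met the remaining muscle cluster.

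The rest of the 15 leading genes were Ank3, for the membrane anchor ankyrin-G, with 33 muscle-only clusters, the nuclear receptor gene Rora with 27, the translation initiation factor gene Eif4g3 with 27, the zinc finger gene Hivep2 with 25, the phosphatase gene Ppm1l with 25 and Atxn1, for ataxin-1, with 22. In Hivep2 the 3′ UTR held 9 muscle-only clusters and 0 of the 27 heart clusters. In Rora the muscle-only and heart clusters had medians at 28.2% and 28% of the gene, so that the sites were interleaved. Long genes offer more room for clusters, and Dmd, with the longest span of these genes, had the lowest density at 0.019 per kb.

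**Figure D3:**
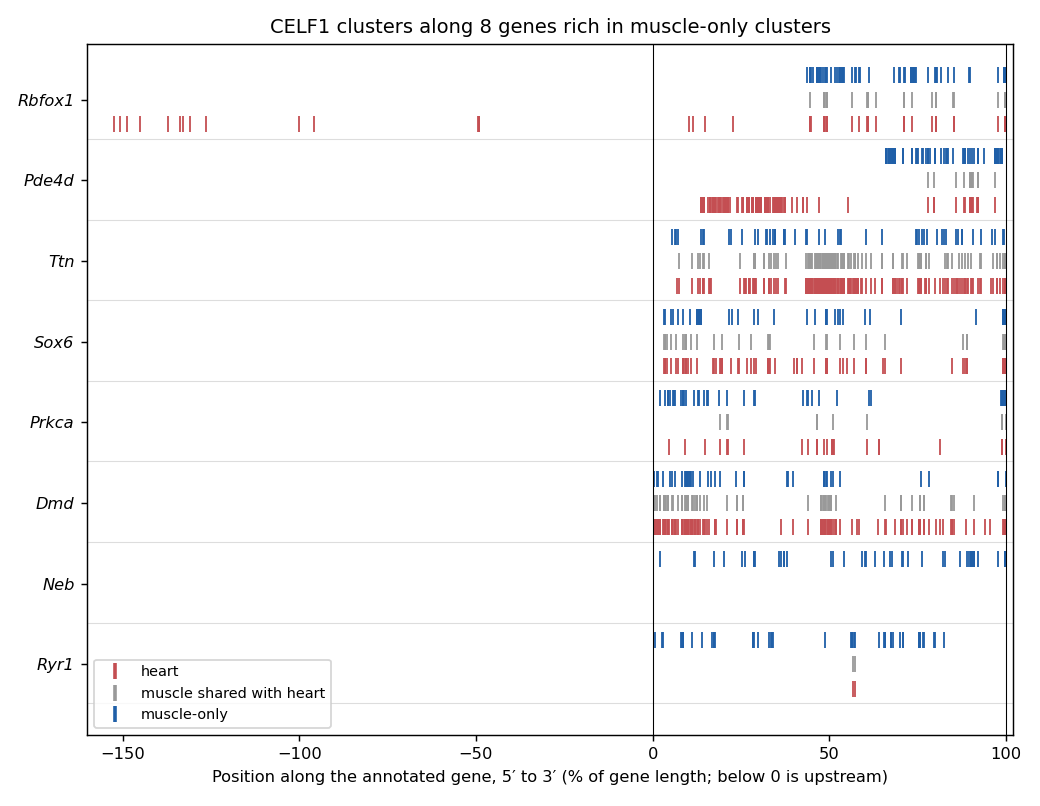
Midpoints of clusters along 8 of the 15 genes with the most muscle-only clusters, as percent of the annotated gene from its 5′ to its 3′ end, with values below 0 upstream of the annotated start; blue ticks are muscle-only clusters, grey ticks muscle clusters shared with heart and red ticks all heart clusters. In Pde4d the blue ticks begin at 66.0% while most red ticks lie below 50%, and Neb has no red tick.

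Ranked by 3′ UTR clusters alone, Sox6 with 16 was followed by Synm, for the intermediate filament protein synemin, with 15, and the transcriptional elongation gene Mllt3 with 14. Rbfox1, the microtubule adaptor gene Hook3, Ano5 and Tlcd4 were among those with 13 each, and the transporter gene Slco5a1 and Rc3h2, for the RNA-binding protein roquin-2, had 12 each. Per kb of 3′ UTR, Rbfox1 held 4.66, Synm 3.48 and Mllt3 3.42, against 1.24 in Hook3, whose 3′ UTR is 10472 nt long.

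The 15 genes with the most muscle-only clusters among those without a heart cluster held from 9 to 50 each. After Neb, Eya4, a transcriptional coactivator of the eyes absent family (Entrez 14051, chromosome 10 from 22823974 to 23069701, minus strand), had 22 muscle-only clusters, 17 in introns. Ano5, whose loss causes a limb-girdle muscular dystrophy (Entrez 233246, chromosome 7 from 58766399 to 58854079, plus strand), had 21, of which 13 were in the 3′ UTR. Tbx15, a transcription factor of fast glycolytic fibres, had 15 of 16 muscle clusters muscle-only, with the remaining one shared with C2C12. Synm (Entrez 233335, chromosome 7 from 74875047 to 74904628, minus strand) had all of its 15 in the 3′ UTR of 4312 nt.

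Channel and signalling genes followed. Kcnc1, for a fast voltage-gated potassium channel, had 13 with 10 in the 3′ UTR, the sodium-calcium exchanger gene Slc8a3 13 that were all intronic, and the adenylyl cyclase gene Adcy2 13. Of the contractile genes, Mybpc2, for the fast form of myosin-binding protein C, had 13, and Myl1, for a fast myosin light chain, 10. In lipid metabolism, Acsl3, for an acyl-CoA synthetase, had 10 and Scd1, for stearoyl-CoA desaturase, 9, all 9 in the 3′ UTR. The others were C2cd2 with 14, the zinc finger homeobox gene Zfhx4 with 12 and the transcription factor gene Tfcp2l1 with 11. Of these 15 genes only Eya4, Tbx15 and Scd1 had a C2C12 cluster, with 4, 2 and 2.

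**Figure D4:**
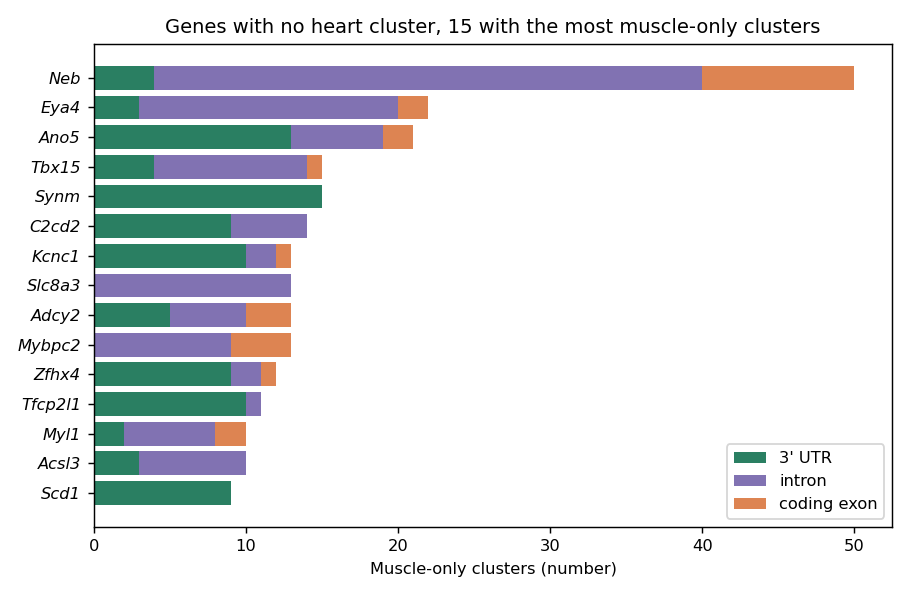
Number of muscle-only clusters in the 15 genes that hold the most among genes with no heart cluster, stacked by part of the gene. Neb reaches 50, while Synm and Scd1 are bound in the 3′ UTR alone and Slc8a3 in introns alone.

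In a further group, heart had clusters in the gene but none that met a muscle cluster. Dapk2, for death-associated protein kinase 2, had 13 muscle-only clusters, all intronic, and 1 heart cluster. Strbp, for an RNA-binding protein of spermatids, had 10 in muscle, 9 of them in the 3′ UTR, and 3 in heart that were all intronic. The growth factor gene Tgfb2 had 9 and 1, with 6 muscle clusters in the 3′ UTR and the heart cluster in an intron. Nup210, for a nuclear pore protein, had 8 and 1, and Ppp4r2, for a regulatory subunit of protein phosphatase 4, 7 and 3. In each of these 2 genes the 3′ UTR held muscle clusters, 7 and 5, and no heart cluster.

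Numbers were more even in the ubiquitin ligase gene Herc2, with 8 in muscle and 10 in heart, and in Parp8, with 8 and 11. Scn4a, the voltage-gated sodium channel of skeletal muscle, had 7 and 1, Nfatc1, a calcium-responsive transcription factor of slow fibres, 6 and 1, and Acsl4 6 and 1. The heart cluster of Scn4a, Nfatc1 and Acsl4 lay in the 3′ UTR, as did 2, 4 and 6 of their muscle clusters, at other positions.

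Muscle-only binding was then read across 10 lists of genes, without a test of the lists. Over all genes bound in muscle, 46.2% of clusters were muscle-only, 78.9% of genes had a muscle-only cluster, 14.4% had no heart cluster and the median was 1 muscle-only cluster per gene. A gene with more muscle clusters has more room for a muscle-only one. The lists were not matched for this, so their medians and shares of genes do not by themselves show a preference. In the excitation-contraction coupling and calcium list, 22 of 24 muscle-bound genes (91.7%) had a muscle-only cluster and 6 (25%) had no heart cluster, with 167 of 290 clusters muscle-only (57.6%) and a median of 3. Ryr1, Jph1, which ties the fibre surface to the calcium store, with 21 muscle-only of 23 clusters, and the calcium sensor gene Stim1 with 17 of 19 led it, followed by Cacna2d1 with 16 of 48. The members without a heart cluster were Cacna1s, the voltage sensor, with 6, Tmem38b with 4, Orai1 with 3, and Cacng1, Jsrp1 and Stac3 with 1 each.

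Of sarcomere, Z-disc and M band genes, 36 of 39 had a muscle-only cluster and 14 (35.9%) no heart cluster, with 248 of 517 clusters muscle-only (48.0%) and a median of 3. Besides Ttn, Neb and Mybpc2, the list was led by the Z-disc gene Pdlim5 with 12 of 43. Members without a heart cluster included skeletal fibre forms such as Mybpc1 with 8, Actn3 with 4, Myoz3 with 4, Myh1 with 3 and Myh2 with 3. Other skeletal forms did have heart clusters, among them Myh4 with 1, Tnnt3 with 1 and Acta1 with 2. The share of genes without a heart cluster thus stood above 14.4% while the share of clusters lay near 46.2%. Ttn alone held 124 of the clusters shared with heart.

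Ion channels and pumps of the fibre membrane had the highest share of muscle-only clusters, 119 of 156 (76.3%), in 16 of 19 genes with a median of 3, and 5 genes (26.3%) had no heart cluster. Kcnma1 held 43 of the 119. Kcnc1 and Slc8a3 had 13 each, the potassium channel gene Kcnq5 8 and the lactate transporter gene Slc16a3 6, and these were among the 5 members without a heart cluster.

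Glycogen and glycolysis genes had 152 of 277 clusters muscle-only (54.9%), in 25 of 27 genes with a median of 3, but only 2 genes (7.41%), Pfkfb4 with 6 and Pgam2 with 2, lacked a heart cluster. Phka1 and Phkb, for subunits of phosphorylase kinase, had 21 of 33 and 16 of 25, and Pgm1, for phosphoglucomutase, 17 of 23. Most muscle-only clusters of this list thus lay in genes bound in heart as well, as did 87.9% of all muscle-only clusters.

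Among myogenic and fibre type transcription factors, 28 of 29 genes had a muscle-only cluster and 7 (24.1%) no heart cluster, with 189 of 397 clusters (47.6%) and a median of 3. Sox6, Eya4 and Tbx15 led, then Nfia with 12 of 44. Members without a heart cluster further included Myf6 with 2, and Myod1 and Vgll2 with 1 each. The neuromuscular junction list was small, with 9 of 14 clusters muscle-only (64.3%), a muscle-only cluster in 5 of 7 genes, a median of 1 and no heart cluster in 3 (42.9%), of which 2 had a muscle-only cluster. The receptor kinase gene Musk held 4 and the acetylcholine receptor gene Chrnb1 2, both without a heart cluster, and Dok7 and Gabpa held 1 each.

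The remaining lists lay near or below the background in their share of clusters. The energy sensing list had 64 of 145 (44.1%), in 12 of 15 genes with a median of 2, and the kinase subunit gene Prkag3, with 5, was its 1 member without a heart cluster (6.67%). Tbc1d1, which controls glucose transporter traffic, led it with 19 of 28, ahead of Prkaa2 with 12 of 33, Rptor with 9 of 19 and Fnip1 with 6 of 22. The dystrophin complex list had 94 of 224 (42.0%), in 12 of 15 genes with a median of 2, led by Dmd, Ano5, Dtna with 10 of 24 and Utrn with 5 of 9. This list is broader than the complex itself, since Ano5, which gave 21 of the 94, is a dystrophy gene outside it. The 3 members of the list without a heart cluster (20.0%) were Ano5, Dtnb with 2 and Nos1 with 2.

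Atrophy and protein turnover genes had 79 of 196 (40.3%), in 16 of 22 genes with a median of 2, and each of the 22 also had a heart cluster. Foxo1 had 12 of 29, Nedd4 11 of 29, Smad3 10 of 15 and Cblb 9 of 16. RNA-binding protein genes had the lowest share, 224 of 602 (37.2%), in 38 of 44 genes with a median of 3, although Rbfox1 alone gave 72 of the 224. Mbnl1, the splicing factor whose loss underlies much of the missplicing in myotonic dystrophy, had 21 of 53, Msi2 14 of 42 and Tnrc6b 12 of 45. Celf1 had 6 of its own 22 muscle clusters outside heart and C2C12 sites, and Ptbp1 and Srsf6, with 1 each, were the 2 members without a heart cluster (4.55%).

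**Figure D5:**
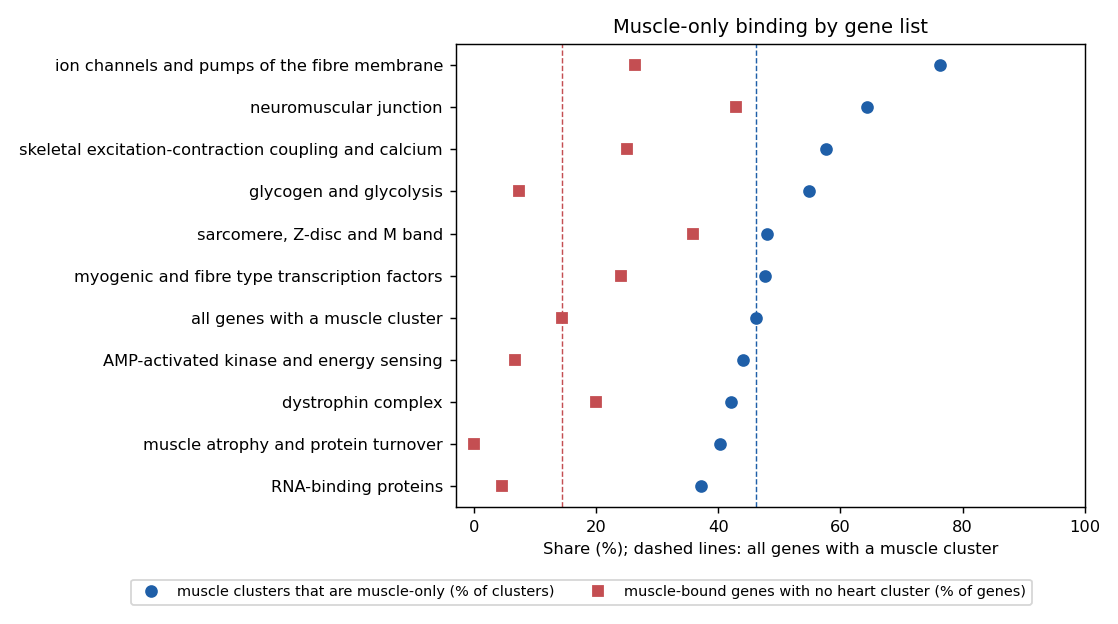
For each of 10 gene lists and for all genes with a muscle cluster, the share of muscle clusters that are muscle-only (blue circles, % of clusters) and the share of muscle-bound genes with no heart cluster (red squares, % of genes); dashed lines mark all genes, at 46.2% and 14.4%. Ion channels stand highest in blue at 76.3%, the neuromuscular junction list, with 7 genes, highest in red at 42.9%, and RNA-binding proteins lowest in blue at 37.2%.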

How the data were processed

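CLIP-seq clusters of CELF1 from 3 libraries (heart, muscle, C2C12) were used as deposited. Before deposit the authors removed duplicate and adapter sequence, as their methods state, mapped the reads to mm9 with Bowtie and TopHat (versions not given in the sources used here), kept those with a single match and called clusters in each library from 30 nt windows with a Poisson model. The deposited files hold positions, strand and Entrez identifiers; a deposited score-like column is 1e-06 in every row, has no stated meaning and was not used. No reads or counts are attached to clusters.

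Positions are mm9, counted from 1. Deposited starts were read as counted from 0, the usual BED form, which no source used here states; otherwise printed starts and sequences could be off by 1 base. Chromosome names and ends fit the NCBIM37 genome, on which mm9 rests. Symbols came from a RefSeq table of GRCm38.p6, used for names alone. Of 8037 identifiers, 7980 (99.3%) matched a GENCODE vM1 gene on the same chromosome and strand. The midpoint decided the part of the gene, in the order 3′ UTR, coding exon, 5′ UTR, intron, from protein-coding transcripts; 44 muscle-only clusters had no matched gene. Intervals are exact Clopper-Pearson at 95%. Fisher's exact tests were two-sided, and code was tested on simulated intervals. Python 3.11.15, scipy 1.17.1, numpy 2.4.6, matplotlib 3.10.9, pandas 2.3.3, samtools 1.23.1 and pysam 0.24.0 were used.

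Members, lists and rules were chosen with earlier results of these data known. Named genes were the 15 with the most muscle-only clusters, the 15 among genes without a heart cluster, the 10 among genes with a heart cluster and no shared muscle cluster, the 10 by 3′ UTR clusters, and up to 4 per list. Some genes and a sequence that these rules select are not reported here.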

Additional observations from a re-analysis of the deposited data

How the results depend on the processing

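The 3′ UTR and intron differences between muscle-only and shared muscle clusters, and the 3′ UTR difference from heart-only clusters, kept their direction and side of the 0.05 threshold under each alternative tried. The 100 nt alternative could hardly weaken the first 2 differences. In genes with a heart cluster, the median distance to one was 193 nt in 3′ UTRs and 2957 nt in introns. No alternative took this spacing into account. The number of muscle-only clusters lay between 9331 and 12599 in the alternatives other than the width limit. With clusters at least 50 nt wide there were 5469, of which 627 stood in genes without a heart cluster, by construction of the limit, and the 3′ UTR difference between genes without and with a heart cluster had an odds ratio of 1.16 and no longer passed. With at least 2 muscle clusters per gene, 238 of 3701 genes had no heart cluster. The UGU odds ratio of muscle-only against shared clusters was 1.01 in 30 nt, but 0.889 in 3′ UTRs, 0.605 in introns and 0.797 stratified by gene in the same 30 nt (added). Another odds ratio compared the share of intronic clusters near an exon between muscle-only and shared clusters. This one was 0.972 within 100 nt and 1.13 within 500 nt, where it passed. Within 300 nt in genes with a heart cluster it was 0.955 (added after seeing the data). For UGU in genes without against with a heart cluster the odds ratio was 1.09 in 30 nt, 1.92 in 3′ UTRs, 1.85 in 3′ UTRs with 30 nt (added), 0.508 in introns and 0.692 in introns with 30 nt (added). For UGU against heart-only clusters it was 1.03 in 30 nt, 1.14 in 3′ UTRs, 1.08 in introns and, added, 1.31 in 3′ UTRs and 1.39 in introns with 30 nt. The causes of these shifts were not tested. No stricter cluster threshold could be set, because the deposited value is constant. No paired analysis was possible because each group has 1 library. Clusters carry no read numbers, so a site missing from heart may be undetected rather than unbound.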
